A study of Mus musculus with 9 samples.

Results

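The iron storage, uptake and export genes are 10 genes that set how much iron a macrophage holds, takes in and releases. Their members are Fth1, Ftl1 and Ncoa4 (storage), Tfrc, Slc11a1, Slc11a2 and Lcn2 (uptake and transport), Slc40a1 (export), and Ireb2 and Aco1 (iron sensing). They were found by symbol among the 51826 genes of the count table, and all 10 passed the filter on low counts that left 14458 genes for testing. The data are polyadenylated RNA from RAW 264.7 cells, a mouse macrophage line, with 3 groups of 3 cultures, numbered as biological replicates in the labels. Calycosin plus LPS cells were given 100 µg/mL of the isoflavone calycosin for 24 h and then 300 ng/mL of lipopolysaccharide (LPS), a bacterial wall component, for 6 h. LPS cells had the same 6 h of LPS at 300 ng/mL without calycosin, and vehicle cells had solvent. No group analysed here had calycosin without LPS, and all groups are 1 cell line, so calycosin is described here in LPS-exposed RAW 264.7 cells only. RNA was measured, not protein or iron.

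Cells keep spare iron inside ferritin, a shell of heavy (Fth1) and light (Ftl1) chains, bring iron in through the transferrin receptor (Tfrc), and let it out through ferroportin (Slc40a1). The iron regulatory proteins, encoded by Aco1 and Ireb2, bind iron-responsive elements when iron is scarce. A hairpin of this kind in a 5′ UTR blocks translation, and those in the 3′ UTR of Tfrc protect its mRNA from decay. Macrophages recycle iron from old red cells, and on bacterial exposure they are known to hold iron back from microbes, in part with lipocalin 2 (Lcn2), which binds the siderophores with which bacteria collect iron.

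The iron-responsive elements are printed here because they are the feature by which several of the 10 transcripts are known to be read together. GENCODE M21 transcripts (GRCm38) were searched on the transcribed strand for a C, 5 bases, the loop CAGTGN and 5 bases that pair with the first 5, G-U pairs allowed. Capitals mark the 6-base loop. The search found the pattern in 4 of the 10 members, and in 294 of 21901 protein-coding genes (1.34%).
Fth1, 5′ UTR, exon 2 of 5 of transcript Fth1-203, chr19:9982732-9982760, plus strand: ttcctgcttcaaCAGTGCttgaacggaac
Ftl1, 5′ UTR, exon 1 of 4, chr7:45459779-45459807, minus strand: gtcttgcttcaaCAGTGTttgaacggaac
Slc40a1, 5′ UTR, exon 1 of 8, chr1:45925465-45925493, minus strand: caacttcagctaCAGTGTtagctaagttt
Tfrc, 3′ UTR, exon 19 of 19, chr16:32631219-32631247, plus strand: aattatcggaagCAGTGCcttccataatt
Tfrc, same exon, chr16:32631598-32631626, plus strand: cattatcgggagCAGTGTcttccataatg
Tfrc, same exon, chr16:32631663-32631691, plus strand: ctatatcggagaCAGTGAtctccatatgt
Tfrc, same exon, chr16:32631710-32631738, plus strand: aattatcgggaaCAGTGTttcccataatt
The elements of the 2 ferritin chains hold the same base at 26 of 29 positions, and the 3 transcripts with the element in the 5′ UTR are the 2 ferritin chains and the exporter. No match was found in the other 6 members, Slc11a2 among them, which says only that these letters are not in their annotated transcripts. Elements with a bulge or a mismatch in the stem were not searched, so the 6 are not shown to lack an element.

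On GRCm38 the genes lie at chr19:9980598-9985098 (Fth1), chr7:45457944-45459884 (Ftl1), chr14:32159865-32179855 (Ncoa4), chr16:32608920-32632794 (Tfrc), chr1:74375195-74386062 (Slc11a1), chr15:100387898-100425072 (Slc11a2), chr2:32384633-32388252 (Lcn2), chr1:45908068-45926523 (Slc40a1), chr9:54863789-54912530 (Ireb2) and chr4:40143081-40198338 (Aco1), and all are protein-coding. A gene is compared between groups in CPM, which are counts divided by the library's TMM-adjusted total. Genes are compared with each other in the authors' TPM, which allow for transcript length. Libraries held 33925342 to 38524105 counts with calycosin plus LPS, 27784737 to 31038241 with LPS alone and 31285425 to 35138718 with vehicle. The share of counts from mitochondrially encoded genes was 17.2%, 7.45% and 19.4% in calycosin plus LPS cells, 13.0% to 14.7% in LPS cells, and 3.79%, 3.68% and 21.9% in vehicle cells. Vehicle replicate 3 and, in the calycosin plus LPS group, replicate 2 differed in this share from the other libraries of their groups, and results that rest on them are given with and without both. All 8 macrophage markers were above 1 CPM on average, summing to 4277 to 4749 CPM in calycosin plus LPS cells, 6258 to 6421 CPM with LPS alone and 4968 to 5326 CPM with vehicle. Marker sums for neutrophils, erythroid cells, hepatocytes, epithelial cells, T cells and B cells stayed at or under 0.683 CPM in every library. Endothelial markers summed to 0.845 to 1.17 CPM in calycosin plus LPS cells, 4.15 to 6.27 CPM in LPS cells and 0.391 to 0.852 CPM in vehicle cells, and fibroblast markers reached 2.91 CPM in LPS cells. The part of these other markers in the results was not tested.

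With LPS, 4 of the 10 genes rose (Lcn2, Slc11a2, Fth1 and Ireb2), 4 fell (Slc40a1, Ncoa4, Ftl1 and Aco1) and 2 did not pass the test (Tfrc and Slc11a1), by edgeR's quasi-likelihood test with Benjamini-Hochberg adjusted p below 0.05. Over all genes tested 27.3% rose and 28.9% fell, 56.3% in either direction, which is the background to the 8 of 10 called here. The groups did not overlap for 8 of the 10 genes, against 60.8% of all genes. The median log2 fold change of the 10 genes was -0.04, against -0.07 over all genes. On the TPM scale, tested with limma, 2 of the 10 genes were called higher and 6 lower, with 1476 genes of the whole table higher and 6962 lower, against 3954 higher and 4180 lower from the counts, and the median log2 change of all genes there was -0.61. In bulk RNA a lower level can come from fewer cells that make a transcript or from less transcript per cell, and these cannot be told apart here.

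With calycosin before LPS, set against LPS alone, 1 of the 10 genes rose (Slc40a1), 1 fell (Fth1) and 8 did not pass the same test. Among all genes tested 16.1% rose and 12.9% fell, 29.1% in either direction. The groups did not overlap for 6 of the 10 genes, against 49.7% of all genes, and the median log2 fold change was 0.05 for the 10 genes and 0.02 for all. On the TPM scale limma called 0 of the 10 (1 at an unadjusted p below 0.05), with 1423 genes of the whole table higher and 335 lower, against 2333 higher and 1871 lower from the counts. Both comparisons use the same LPS libraries.

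Against vehicle, calycosin plus LPS cells had 3 of the 10 genes higher (Lcn2, Slc11a2 and Ireb2) and 3 lower (Slc40a1, Ncoa4 and Aco1). The background was 25.4% higher and 23.6% lower, 49.0% in either direction. The groups did not overlap for 6 of the 10 genes, against 56.2% of all genes. On the TPM scale 1 of the 10 genes was called higher and 3 lower, with 1500 genes of the whole table higher and 3707 lower, against 3672 higher and 3413 lower from the counts. The medians were -0.02 for the 10 genes and 0.00 for all genes on the log2 scale.

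**Figure D1:**
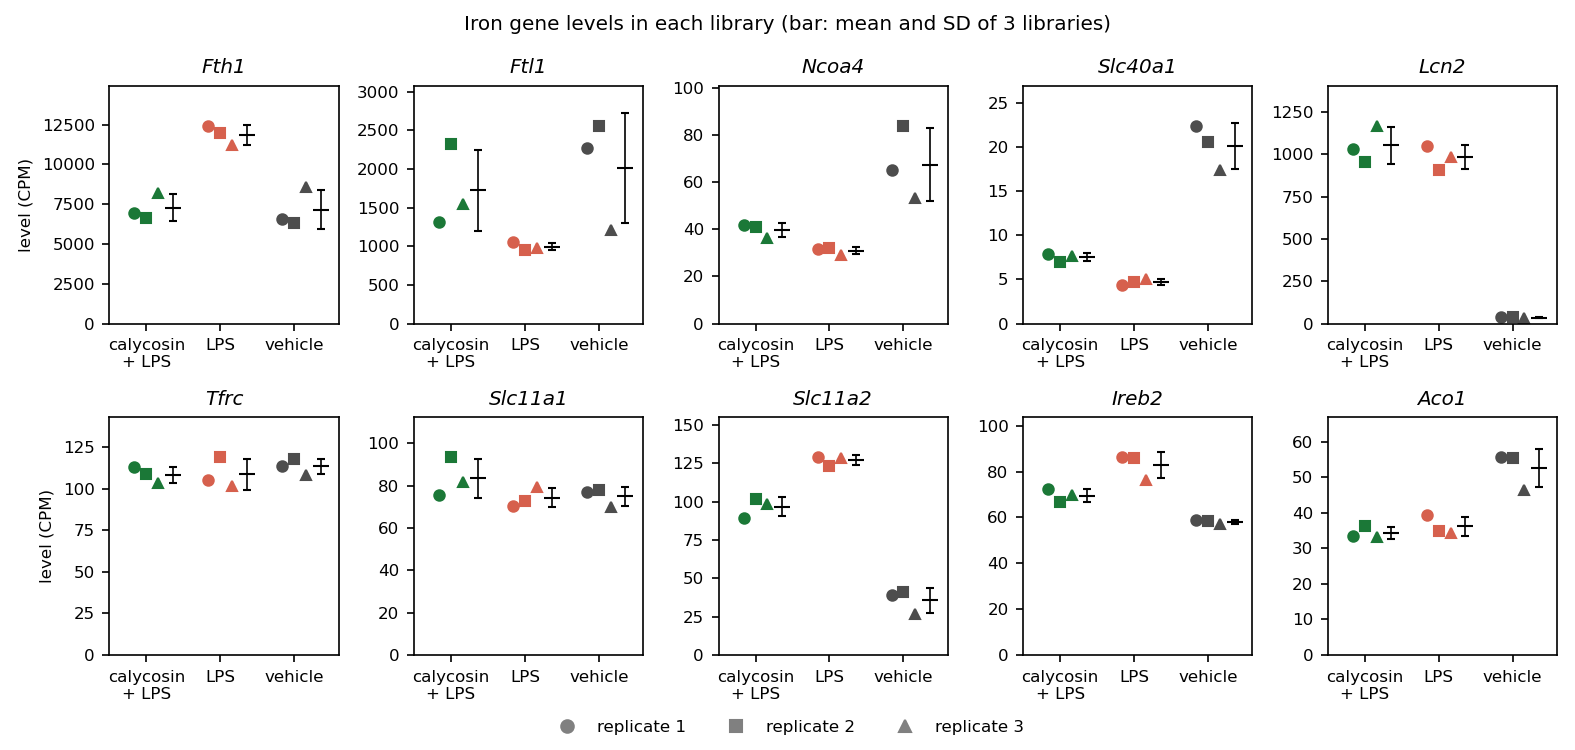
Level of each of the 10 genes in CPM (y axis, linear, from 0) in calycosin plus LPS, LPS and vehicle cells (x axis), 1 point per library with the shape giving its number, and mean with SD of 3 libraries beside each group. Lcn2 is at 910.0 to 1170.5 CPM in both groups that had LPS and at 33.0 to 36.3 CPM in vehicle cells, Slc40a1 is lowest in LPS cells, and the 3 groups of Tfrc overlap.

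Fth1, the ferritin heavy chain that oxidises iron for storage, was the most abundant of the 10 transcripts, at 13963 ± 1863 TPM in calycosin plus LPS cells, 18079 ± 489 TPM in LPS cells and 18639.6 ± 2636 TPM in vehicle cells (SD, n = 3 each). Among 51762 genes that are not mitochondrially encoded it ranked 5 by mean TPM in calycosin plus LPS cells, 5 in LPS cells and 1 in vehicle cells. In CPM it had 6963, 6645 and 8232 in calycosin plus LPS cells, 12440.4, 11982 and 11197 in LPS cells, and 6582, 6328 and 8579 in vehicle cells. All 3 LPS libraries lay above the other 6, and the other 2 groups overlapped. Against vehicle, LPS cells were 1.66-fold higher (log2 fold change 0.73, SE 0.19, adjusted p = 0.00935) in CPM, while on the TPM scale the log2 change was -0.034, which is 0.57 above the median of all genes there. Against LPS alone, calycosin plus LPS cells were 1.63-fold lower (log2 fold change -0.71, SE 0.19, adjusted p = 0.0220).

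That second call rests on few libraries. The adjusted p of Fth1 was 0.0687 without LPS replicate 1, 0.0659 without LPS replicate 2, 0.0785 without calycosin plus LPS replicate 1 and 0.0744 without calycosin plus LPS replicate 2, by the same edgeR test. Without vehicle replicate 3 and calycosin plus LPS replicate 2 together it was -0.62 on the log2 scale with an adjusted p of 0.00234. Calycosin plus LPS and vehicle cells differed by 0.02 on the log2 scale (SE 0.19, adjusted p = 0.929).

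Ftl1, the light chain that helps the iron core form, had 1311, 2319 and 1547 CPM in calycosin plus LPS cells, 1049, 954 and 983 CPM in LPS cells, and 2274, 2562 and 1212 CPM in vehicle cells. Its LPS libraries were the lowest 3 of the 9, the reverse of Fth1, and the other 2 groups overlapped widely. It was 2.03-fold lower in LPS than in vehicle cells (log2 fold change -1.02, SE 0.29, adjusted p = 0.0136). Against LPS alone, calycosin plus LPS cells averaged 1726 ± 527 CPM and LPS cells 995 ± 48.7 CPM (SD, n = 3 each), a log2 difference of 0.79 (SE 0.29) that did not pass the test (adjusted p = 0.0655).

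The Ftl1 level moved with the mitochondrial share as well as with the groups, as the plot of level against mitochondrial share shows. The 3 libraries with a share under 10%, which are calycosin plus LPS replicate 2 and vehicle replicates 1 and 2, had 2274 to 2562 CPM. The other 6 libraries, which hold every LPS library, had 954 to 1547 CPM. Restricted to the libraries above 10%, the fall with LPS was -0.31 on the log2 scale and did not pass the test (adjusted p = 0.0885), the vehicle group being replicate 3 alone, assumed to vary like the other groups. With vehicle replicate 3 and calycosin plus LPS replicate 2 left out, LPS cells were -1.34 against vehicle (adjusted p = 1.02e-05), and calycosin plus LPS cells were 0.54 against LPS alone (adjusted p = 0.00383) and -0.79 against vehicle (adjusted p = 4.42e-04). With vehicle replicate 3 alone left out, calycosin plus LPS against LPS was 0.81 (adjusted p = 0.00840).

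**Figure D2:**
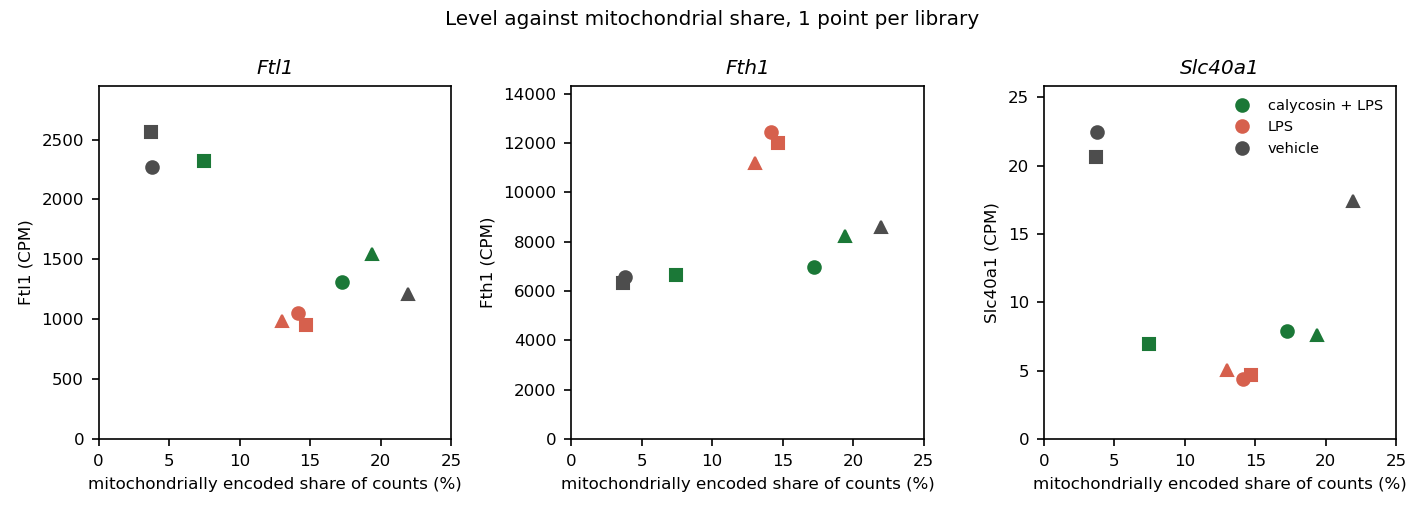
Level in CPM (y axes, linear, from 0) of Ftl1, Fth1 and Slc40a1 against the share of counts from mitochondrially encoded genes in percent (x axes), 1 point per library, coloured by group, with circles, squares and triangles for replicates 1, 2 and 3. The 3 libraries with shares under 10% hold the highest Ftl1 levels, the 3 LPS libraries the highest Fth1 levels, and vehicle replicate 3 at 21.9% keeps a Slc40a1 level of 17.4 CPM.

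The 2 chains make 1 protein shell, so their ratio was computed within each library from TPM. It was 5.90, 3.19 and 5.89 heavy to light in calycosin plus LPS cells, 13.2, 13.9 and 12.5 in LPS cells, and 3.20, 2.74 and 7.84 in vehicle cells. The LPS libraries were above all 6 others, and the other 2 groups overlapped. The means were 4.99 ± 1.56 in calycosin plus LPS cells, 13.2 ± 0.717 in LPS cells and 4.59 ± 2.82 in vehicle cells (SD, n = 3 each). An exact two-sided permutation test gave p = 0.1 for LPS against vehicle and p = 0.1 for calycosin plus LPS against LPS, the smallest value that 3 against 3 libraries allow, and p = 0.9 for calycosin plus LPS against vehicle.

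Both chains together took 0.779% to 0.992% of all counts in calycosin plus LPS cells, 0.990% to 1.07% with LPS alone and 1.03% to 1.26% with vehicle. In LPS cells this sum was set by Fth1, at 0.910% to 0.983% of counts, with Ftl1 at 0.0750% to 0.0829%. In vehicle cells Fth1 took 0.898% to 0.933% of counts, which overlaps the LPS libraries, so its rise in CPM depends on the TMM scaling. Reads of Ftl1 can also be placed on its processed copies: the loci annotated for these held 3.02% to 6.72% as many counts as Ftl1, and how reads shared between them were counted is not given in the sources used here, so its level is uncertain.

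Ncoa4, the receptor that carries ferritin to lysosomes so that its iron is freed, had 41.9, 40.8 and 36.3 CPM in calycosin plus LPS cells, 31.5, 31.9 and 29.1 CPM in LPS cells, and 64.9, 84.0 and 53.1 CPM in vehicle cells. None of the 3 groups overlapped with another. LPS cells were 2.18-fold lower than vehicle cells (log2 fold change -1.13, SE 0.16, adjusted p = 2.59e-04). Calycosin plus LPS cells lay between, 1.70-fold below vehicle (log2 fold change -0.76, SE 0.16, adjusted p = 0.00352) and 0.36 above LPS on the log2 scale (SE 0.16), which did not pass the test (adjusted p = 0.121). It passed under 4 of the 23 alternative settings, which were vehicle replicate 3 left out (0.38, adjusted p = 0.0295), only libraries above 10% mitochondrial share (adjusted p = 0.0414), the mitochondrial share in the model (adjusted p = 0.0300) and only these 2 groups fitted (adjusted p = 0.0282). The fall with LPS kept its call under all 23 alternative settings.

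Lcn2 showed the largest change of the 10 genes. It had 1033, 957 and 1170.5 CPM in calycosin plus LPS cells, 1052, 910.0 and 986 CPM in LPS cells, and 35.7, 36.3 and 33.0 CPM in vehicle cells. Every library that had LPS was at or above 910.0 CPM, and every vehicle library was at or under 36.3 CPM. LPS cells were 28.05-fold above vehicle cells (log2 fold change 4.81, SE 0.15, adjusted p = 8.87e-09) and calycosin plus LPS cells 30.1-fold above them (log2 fold change 4.91, SE 0.15, adjusted p = 9.87e-09). The 2 groups with LPS overlapped, and their log2 difference was 0.10 (SE 0.12, adjusted p = 0.577). Per length, Lcn2 reached 1905 ± 243 TPM in calycosin plus LPS cells, 1413 ± 112 TPM in LPS cells and 90.1 ± 29.1 TPM in vehicle cells (SD, n = 3 each), and in mean TPM it ranked 23, 37 and 1595 in these groups.

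The genes whose log2 CPM followed Lcn2 most closely over the 9 libraries, of 11752 ranked, were Trim30c, Ddx60 and Mx1, with Pearson r of 0.999, 0.999 and 0.998. Mx1 is an interferon-induced antiviral GTPase, and Ddx60 an interferon-induced helicase. Ddx60 averaged 98.4 CPM in calycosin plus LPS cells, 73.9 CPM in LPS cells and 0.409 CPM in vehicle cells. These values describe a split between the 6 libraries with LPS and the 3 without.

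Slc11a2 (DMT1), which carries ferrous iron across endosomal and plasma membranes, had 89.6, 102 and 98.4 CPM in calycosin plus LPS cells, 129, 123 and 129 CPM in LPS cells, and 39.1, 40.9 and 26.6 CPM in vehicle cells. The 3 groups did not overlap. LPS cells were 3.57-fold above vehicle cells (log2 fold change 1.84, SE 0.16, adjusted p = 8.52e-06), and calycosin plus LPS cells 2.72-fold above them (log2 fold change 1.44, SE 0.16, adjusted p = 6.69e-05). Calycosin plus LPS stood at -0.39 against LPS alone on the log2 scale (SE 0.15), which did not pass the test (adjusted p = 0.0844), and with vehicle replicate 3 and calycosin plus LPS replicate 2 left out it did (-0.41, adjusted p = 0.00424), as it did without vehicle replicate 3 alone (adjusted p = 0.00612).

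Slc11a1 (NRAMP1), the sister transporter of the phagosome membrane, had 75.4, 93.4 and 81.5 CPM in calycosin plus LPS cells, 70.6, 72.9 and 79.1 CPM in LPS cells, and 77.0, 78.1 and 69.6 CPM in vehicle cells. The 3 groups overlapped, and edgeR called no comparison of the counts without a further correction (adjusted p = 0.923 for LPS against vehicle, 0.290 for calycosin plus LPS against LPS, 0.276 for calycosin plus LPS against vehicle). RAW 264.7 cells are known to carry the inactive Slc11a1 allele of the BALB/c mouse, so this transcript stands for a protein without normal function in this line. The calls depended on these corrections and on scaling: LPS against vehicle was 0.37 (adjusted p = 0.00557) with a correction for GC content and -1.02 (adjusted p = 0.0414) on the TPM scale, where the median gene stood at -0.61. Calycosin plus LPS against vehicle was 0.45 (adjusted p = 0.00249) with the GC correction and 0.24 (adjusted p = 0.0370) with the mitochondrial share in the model.

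Tfrc, the receptor that takes up iron-loaded transferrin and whose 3′ UTR carries the 4 elements printed above, had 113, 109 and 103 CPM in calycosin plus LPS cells, 105, 119 and 101 CPM in LPS cells, and 114, 118 and 108 CPM in vehicle cells. The 3 groups overlapped throughout. The means were 108 ± 4.88, 109 ± 9.24 and 113 ± 4.74 CPM (SD, n = 3 each), a log2 difference of -0.06 (SE 0.10, adjusted p = 0.625) for LPS against vehicle and a ratio of 0.998 (adjusted p = 0.985) for calycosin plus LPS against LPS. On the TPM scale LPS against vehicle was -0.87 (adjusted p = 0.0114), which is -0.27 relative to the median gene, and with the GC correction it was -0.53 (adjusted p = 0.0166).

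The RNA-binding factors known to act on Tfrc mRNA all rose with LPS, 4 of 4, against 27.3% of all genes. Zc3h12a (Regnase-1), an endonuclease that cleaves Tfrc and cytokine mRNAs, averaged 189 CPM in LPS cells and 7.37 CPM in vehicle cells (log2 fold change 4.68, SE 0.14, adjusted p = 7.74e-09). Zfp36 (tristetraprolin), which promotes decay of AU-rich mRNAs, averaged 386 CPM in LPS cells and 12.04 CPM in vehicle cells (5.01, SE 0.19, adjusted p = 2.87e-08). Rc3h2 and Rc3h1 (the Roquin proteins) were 2.19-fold and 1.33-fold higher, and the Rc3h1 call was lost with 5 of the 9 libraries left out in turn (highest adjusted p = 0.148). With calycosin, 2 of the 4 fell relative to LPS alone, as did 12.9% of all genes. Zc3h12a fell to 71.9 CPM (log2 fold change -1.40, SE 0.12, adjusted p = 1.05e-04) and Zfp36 to 219 CPM (-0.82, SE 0.16, adjusted p = 0.00489).

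Slc40a1, ferroportin, the one iron exporter known in mammals, had 7.89, 6.99 and 7.64 CPM in calycosin plus LPS cells, 4.42, 4.72 and 5.03 CPM in LPS cells, and 22.5, 20.6 and 17.4 CPM in vehicle cells. No group overlapped with another. Behind these values lie 236 to 298 counts per library in calycosin plus LPS cells, 97 to 121 with LPS alone and 572 to 1119 with vehicle. LPS cells were 4.27-fold below vehicle cells (log2 fold change -2.09, SE 0.14, adjusted p = 1.68e-06), the largest fall among the 10 genes. Calycosin plus LPS cells were 1.59-fold above LPS cells (log2 fold change 0.67, SE 0.14, adjusted p = 0.00715) and still 2.69-fold below vehicle cells (log2 fold change -1.43, SE 0.14, adjusted p = 2.97e-05).

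The rise with calycosin was 0.74 (adjusted p = 0.00209) with vehicle replicate 3 and calycosin plus LPS replicate 2 left out. On the TPM scale it was 0.78, or 0.53 above the median gene, and did not pass the test (adjusted p = 0.123). In mean TPM, Slc40a1 was the lowest of the 10 transcripts in every group, at 3.87 ± 0.887 in calycosin plus LPS cells, 1.81 ± 0.181 in LPS cells and 15.2 ± 5.94 in vehicle cells (SD, n = 3 each).

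The genes most like Slc40a1 over the 9 libraries were Ppp1r12b, a myosin phosphatase subunit (r = 0.997), Sgsh, a lysosomal sulfatase (r = 0.996), and Syce2, a synaptonemal complex protein (r = 0.995). Sgsh averaged 14.03 CPM in calycosin plus LPS cells, 6.82 CPM in LPS cells and 61.6 CPM in vehicle cells, the same order as Slc40a1.

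**Figure D3:**
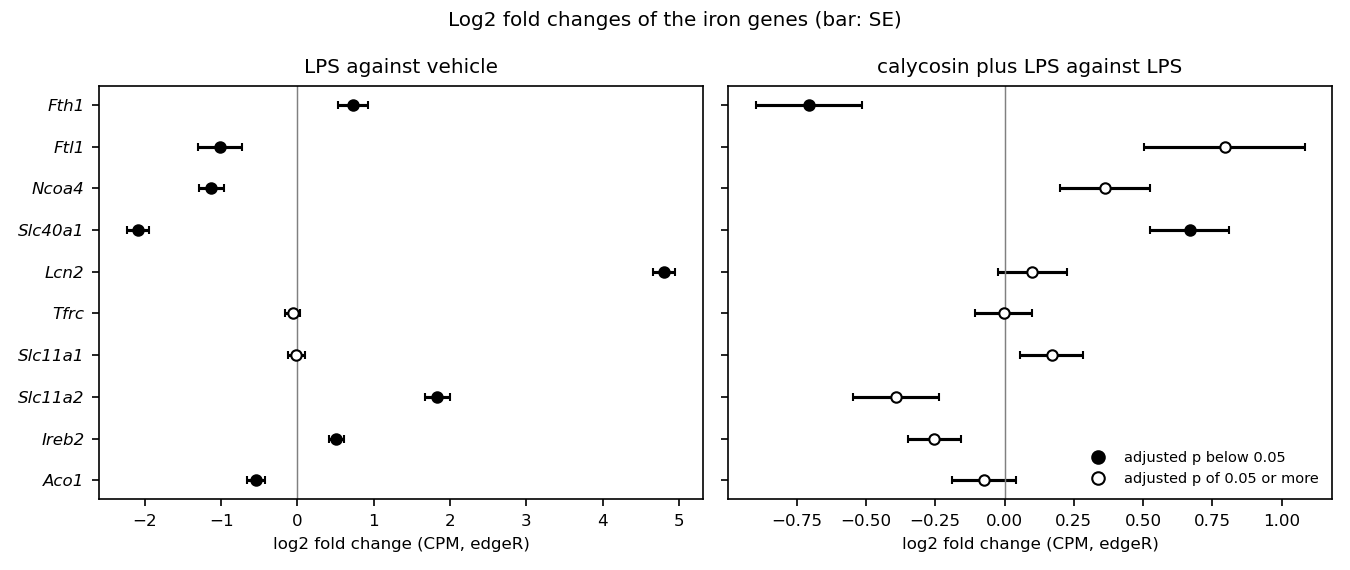
Log2 fold change from edgeR on counts (x axes, different ranges) with SE as bars for the 10 genes (y axis), LPS against vehicle on the left and calycosin plus LPS against LPS on the right, filled where the adjusted p is below 0.05. On the left 8 genes are filled, from Slc40a1 at -2.09 to Lcn2 at 4.81, and on the right Fth1 at -0.71 and Slc40a1 at 0.67.

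Ireb2, which encodes iron regulatory protein 2, had 72.3, 66.6 and 69.7 CPM in calycosin plus LPS cells, 86.3, 86.0 and 76.3 CPM in LPS cells, and 58.8, 58.6 and 57.1 CPM in vehicle cells. The 3 groups did not overlap. It was 1.42-fold higher in LPS than in vehicle cells (log2 fold change 0.51, SE 0.10, adjusted p = 0.00142), but this direction turned on the TPM scale (-0.25, which is 0.35 above the median gene) and the change was 0.01 with the GC correction. Against LPS alone calycosin plus LPS stood at -0.25 (SE 0.10, adjusted p = 0.0748). Against vehicle it was 0.26 (SE 0.10, adjusted p = 0.0486). This call was lost with the same sign under 15 of the 23 alternative settings, among them the removal of any 1 library other than LPS replicate 3. Under 4 further settings, the TPM fits and the GC offset, the direction turned, and 4 kept the call.

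Aco1, which encodes iron regulatory protein 1 or, with an iron-sulfur cluster, cytosolic aconitase, had 33.4, 36.4 and 33.3 CPM in calycosin plus LPS cells, 39.2, 34.9 and 34.4 CPM in LPS cells, and 55.6, 55.5 and 46.5 CPM in vehicle cells. Both groups with LPS lay below all vehicle libraries and overlapped each other. LPS cells were 1.45-fold below vehicle cells (log2 fold change -0.54, SE 0.12, adjusted p = 0.00312) and calycosin plus LPS cells 1.53-fold below them (-0.61, SE 0.12, adjusted p = 0.00193). Against LPS alone the log2 difference was -0.07 (SE 0.12, adjusted p = 0.665). Among libraries with a mitochondrial share above 10%, where vehicle replicate 3 stood alone, the fall with LPS was -0.38.

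In CPM the 2 regulators thus moved in opposite directions with LPS, while on the TPM scale both stood below vehicle cells. Per length, Ireb2 had 20.6 ± 3.88 TPM and Aco1 15.4 ± 4.05 TPM in calycosin plus LPS cells, 19.1 ± 0.809 and 12.6 ± 0.770 TPM in LPS cells, and 23.7 ± 6.91 and 33.0 ± 11.8 TPM in vehicle cells (SD, n = 3 each).

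By mean TPM in vehicle cells the order was Fth1, Ftl1, Slc11a1 (136 ± 53.0), Lcn2, Tfrc (71.3 ± 18.2), Ncoa4 (57.9 ± 28.7), Aco1, Slc11a2 (27.3 ± 12.5), Ireb2 and Slc40a1 (SD, n = 3 each). Neighbours from Slc11a1 to Ireb2 differed by less than the larger of their SDs between libraries. Within every vehicle library the order Slc11a1, Lcn2, Tfrc held, as did the order Ncoa4, Aco1, Slc11a2. Tfrc was below Ncoa4 in replicate 2 (78.5 and 85.8 TPM), and Slc11a2 below Ireb2 in replicate 3 (13.0 and 15.7 TPM). The order within these 2 pairs is not resolved. In LPS cells Lcn2 (1413 TPM) and Ftl1 (1371 TPM) came next after Fth1 and differed by less than 1 SD. In calycosin plus LPS cells Ftl1 averaged 3141 ± 1648 TPM and Lcn2 1905 ± 243 TPM, a difference smaller than the SD of Ftl1. Ftl1 was nonetheless above Lcn2 in each of these libraries (2120, 5043 and 2260 TPM, against 1747, 2184 and 1783 TPM).

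Among the other genes of iron transport and reduction, 10 of 16 were tested. With LPS, 5 rose and 5 fell, against 27.3% and 28.9% of all genes. Among libraries above 10% mitochondrial share vehicle replicate 3 stood alone, so no calls with LPS are given for that subset. Steap3, the endosomal ferrireductase that prepares iron for Slc11a2, fell to 6.00 CPM in LPS cells, against 37.0 CPM in vehicle cells (log2 fold change -2.62, SE 0.24, adjusted p = 1.10e-05). Slc39a8 (ZIP8), which imports zinc, manganese and iron, rose to 8.50 CPM in LPS cells, against 2.53 CPM in vehicle cells (1.76, SE 0.42, adjusted p = 0.00583). Among libraries above 10%, where vehicle replicate 3 stood alone, its change was 1.08. Trf, transferrin itself, had 0.182, 0.451 and 2.70 CPM in LPS cells and 5.46, 5.47 and 2.43 CPM in vehicle cells. Its groups overlapped, and its log2 fold change of -1.99 (SE 0.71, adjusted p = 0.0355) was -1.50 to -3.78 with 1 library left out in turn, the last without LPS replicate 3, and lost its call for 6 of the 9 libraries (adjusted p up to 0.114). Bdh2, an enzyme linked to a mammalian siderophore, fell by 1.68 on the log2 scale to 0.209 CPM in LPS cells. Vehicle replicate 3, the only vehicle library above 10%, had 0.578 CPM.

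With calycosin against LPS alone, 2 of these 10 genes rose and 2 fell, against 16.1% and 12.9% of all genes. With vehicle replicate 3 and calycosin plus LPS replicate 2 left out, 4 were called lower, as were 2670 of the 14845 genes tested. Steap3 rose to 13.7 CPM in calycosin plus LPS cells, against 6.00 CPM in LPS cells (log2 fold change 1.19, SE 0.23, adjusted p = 0.00449). Mcoln1, the lysosomal channel that releases iron to the cytosol, was 1.40-fold higher. Slc39a8 fell to 1.90 CPM, against 8.50 CPM in LPS cells (-2.17, SE 0.44, adjusted p = 0.00537), and Cp, ceruloplasmin, the copper enzyme that oxidises exported iron for transferrin, fell to 57.5 CPM, against 139.8 CPM in LPS cells (-1.28, SE 0.17, adjusted p = 7.31e-04).

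Of the iron sensing and hepcidin genes 6 of 12 were tested. With LPS, 4 fell and 0 rose, against 28.9% and 27.3% of all genes. They were Usf2, a transcription factor (log2 fold change -1.09), Herc2, a ubiquitin ligase (-0.74), Hfe, the hemochromatosis protein that binds Tfrc (-0.67), and Fbxl5, the iron-binding adaptor that marks Ireb2 protein for destruction (-0.36, SE 0.13, adjusted p = 0.0414). Among libraries above 10% mitochondrial share vehicle replicate 3 stood alone, so calls of these 4 falls are not given for that subset. With each library left out in turn, the Hfe call was lost for 8 of the 9 libraries and the Fbxl5 call for 7 (adjusted p up to 0.146 and 0.132). With calycosin against LPS alone, 1 of the 6 rose and 2 fell, against 16.1% and 12.9% of all genes. Hfe had 2.57 CPM, against 5.28 CPM in LPS cells (-1.03, SE 0.27, adjusted p = 0.0179). Neo1 fell to 0.420 CPM, against 1.63 CPM, and Erfe rose to 1.42 CPM, against 0.359 CPM. In the libraries above 10%, 1 gene of the list, Hfe, was called, lower, as were 2282 of the 14927 genes tested. The calls of Hfe, Neo1 and Erfe were lost with 3, 4 and 4 of the 9 libraries left out in turn (adjusted p up to 0.0684, 0.128 and 0.0900). The iron chaperones Pcbp1 and Pcbp2, which hand iron to ferritin, did not pass either test: Pcbp1 averaged 291 CPM in calycosin plus LPS cells and 329.6 CPM in LPS cells, and Pcbp2 280.5 and 307 CPM.

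Among other transcripts known to carry an iron-responsive element, 2 of 5 were tested. Cdc14a, a phosphatase whose human mRNA is known to carry an element in a 3′ UTR, fell to 10.2 CPM in LPS cells, against 16.6 CPM in vehicle cells (log2 fold change -0.70, SE 0.16, adjusted p = 0.00511). It rose to 20.7 CPM in calycosin plus LPS cells, against 10.2 CPM in LPS cells (1.02, SE 0.16, adjusted p = 0.00187).

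Of the heme synthesis genes 11 were tested, and with LPS 7 fell and 1 rose, against 28.9% and 27.3% of all genes. The median log2 fold change of the 11 was -1.07, against -0.07 over all genes. Abcb6, a porphyrin transporter, fell to 10.6 CPM in LPS cells, against 43.0 CPM in vehicle cells (-2.02, SE 0.22, adjusted p = 4.17e-05). Alad, an early enzyme of the pathway, fell by 1.53 on the log2 scale. Tmem14c, which moves porphyrin precursors into mitochondria, had 13.8, 12.8 and 16.5 CPM in LPS cells, against 50.7, 51.5 and 18.2 CPM in vehicle cells (-1.48, SE 0.36, adjusted p = 0.00646). Vehicle replicate 3 lay close to the LPS libraries. Among libraries above 10% mitochondrial share, where it was the only vehicle library, the change was -0.36. With calycosin against LPS alone 3 of the 11 rose, against 16.1% of all genes. Among the 3 were Alad at 22.3 CPM, against 11.8 CPM (0.92, SE 0.18, adjusted p = 0.00492), and Cpox at 80.0 CPM, against 46.7 CPM. Restricted to libraries above 10% mitochondrial share, 4 genes of the list rose with calycosin against LPS alone, as did 2619 of the 14927 genes tested. With vehicle replicate 3 alone in that subset, calls with LPS against vehicle are not given.

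Genes of heme uptake, breakdown and export had 10 of 13 tested, of which 5 fell and 1 rose with LPS. Over all genes 28.9% fell and 27.3% rose, 56.3% in either direction. Flvcr1, a heme exporter, fell to 13.1 CPM in LPS cells, against 39.0 CPM in vehicle cells (log2 fold change -1.58, SE 0.13, adjusted p = 5.14e-06). Bach1, the heme-sensing repressor of ferritin and Hmox1 genes, fell to 11.02 CPM, against 30.3 CPM (-1.46, SE 0.16, adjusted p = 4.82e-05), and Slc48a1, a lysosomal heme importer, to 53.2 CPM, against 146 CPM. Hmox2, the constitutive heme oxygenase, was 1.84-fold higher. With calycosin 2 rose and 3 fell, against 16.1% and 12.9% of all genes. Hmox1, the inducible heme oxygenase, rose to 177 CPM, against 113 CPM in LPS cells (0.64, SE 0.14, adjusted p = 0.00758). Hmox2 fell to 47.8 CPM, against 70.6 CPM, and Blvra, biliverdin reductase, to 62.1 CPM, against 112 CPM. The third to fall, Hp (haptoglobin), was at 0.0522 CPM, against 0.284 CPM in LPS cells, and lost its call with 7 of the 9 libraries left out in turn (adjusted p up to 0.0973).

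For iron-sulfur cluster assembly all 24 genes were tested, and 11 fell and 4 rose with LPS, 15 of 24, against 56.3% of all genes called in either direction. The median log2 fold change was -0.55, against -0.07 over all genes. Fdxr, which feeds electrons to the cluster machinery, fell to 3.05 CPM in LPS cells, against 11.3 CPM in vehicle cells (-1.89, SE 0.34, adjusted p = 0.00104). Glrx5, a cluster carrier, and Ndor1, a reductase of the cytosolic pathway, each fell by 1.63, and Hscb, a cochaperone, by 1.39. Among libraries above 10% mitochondrial share, where vehicle replicate 3 stood alone, Fdxr was at -1.08 and Glrx5 at -0.93 with LPS. Isca1 and Iba57, factors of late cluster assembly, had 21.2 and 2.91 CPM in calycosin plus LPS cells, against 15.1 and 6.10 CPM in LPS cells, and both changes passed the test but lost their calls with 5 and 4 of the 9 libraries left out in turn (adjusted p up to 0.0962 and 0.110). With calycosin 3 rose and 2 fell, 5 of 24, against 29.1% of all genes, among them Hscb, which rose to 19.0 CPM, against 9.73 CPM in LPS cells (0.97, SE 0.13, adjusted p = 6.17e-04), and Hspa9, the mitochondrial chaperone, which fell to 955 CPM, against 1446 CPM (-0.60, SE 0.14, adjusted p = 0.0127, and 0.0502 without calycosin plus LPS replicate 2). With the mitochondrial share as a covariate the calycosin counts were 8 higher and 4 lower. Calls over all 14458 genes rose too in that fit, to 3473 higher and 3282 lower, against 2333 and 1871 without the covariate.

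**Figure D4:**
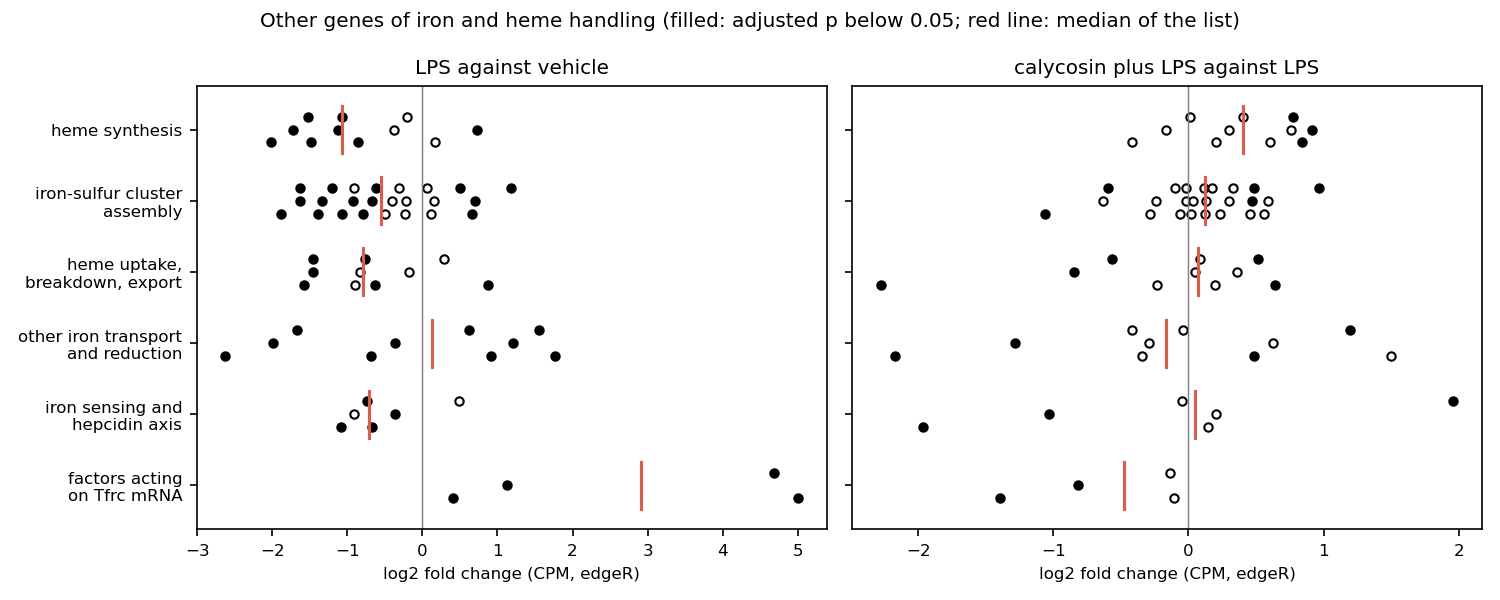
Log2 fold change from edgeR on counts (x axes, different ranges) of the tested genes of 6 lists (y axis), 1 point per gene, filled where the adjusted p is below 0.05, with a red line at the list's median. Heme synthesis has its median at -1.07 with LPS against vehicle (left) and at 0.40 with calycosin plus LPS against LPS (right), and the factors acting on Tfrc mRNA at 2.91 and -0.48.

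Other metal transporters had 5 of 6 tested, with 2 higher and 1 lower in LPS than in vehicle cells. Over all genes 27.3% were higher and 28.9% lower. Slc39a1 (ZIP1), a zinc importer, rose to 244 CPM in LPS cells, against 94.1 CPM in vehicle cells (log2 fold change 1.37, SE 0.13, adjusted p = 1.23e-05), and Atp7a, the copper pump, to 93.8 CPM, against 38.6 CPM, while Slc31a1, the copper importer, was 1.25-fold lower (adjusted p = 0.0138, and 0.0832 among libraries above 10%). With calycosin Slc39a1 fell to 119 CPM, against 244 CPM in LPS cells (-1.03, SE 0.13, adjusted p = 4.74e-04), and Slc30a1, the zinc exporter, rose to 39.8 CPM, against 21.8 CPM. Of 16 other lipocalin family genes 2 were tested, and both were under 1 CPM in every group mean: Orm3 at 0.380, 0.305 and 0.0202 CPM and C8g at 0.195, 0.0884 and 0.809 CPM in calycosin plus LPS, LPS and vehicle cells. The other 14 had too few counts to be tested.

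Promoter windows of 250 bases before to 50 after the start, from RefSeq (GRCm38.p6), were available for 8 of the 10 genes, 12 windows in all. The string GGGNNTTCC, searched on both strands as 1 form of the NF-kappaB motif, was in 0 of these 12 windows, against 5.82% of 32851 windows. NF-kappaB sites of another length or with other letters were not searched, so the 0 covers this string only. The antioxidant response element core TGACNNNGC, also on both strands, was in 1 window, that of Ncoa4 at position -44 from the start, against 12.4% of all windows. These letters in such a window are a description and not a bound site.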

How the data were processed

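Polyadenylated RNA from 9 RAW 264.7 cultures was sequenced, 3 libraries per group. Per the labels' protocols, RNA came from Trizol, mRNA from poly-T beads and libraries from a dual-mode kit. Trimmomatic 0.36, HISAT2 2.0, StringTie 1.3.3b and build mm10 are named, without roles, per the submitters' processing notes. Which counter, annotation and strand setting were used is not given in the sources here. The authors deposited raw counts for 51826 genes and TPM, scaled by them for length and depth, for 51799 genes. For 26 symbols turned into dates, names were restored from identifiers. The 51633 identifiers found in GENCODE M21 gave positions and GC content.

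Groups were taken from the labels. Genes were filtered with filterByExpr (14458 left), scaled by TMM (factors 0.786 to 1.42) and compared with edgeR 4.0.16 (R 4.3.3), quasi-likelihood F test, two-sided, over all 9 libraries, with Benjamini-Hochberg adjustment over all genes tested and a threshold of 0.05. The SE was derived from the test statistic. Alternatives used DESeq2 1.42.0, limma 3.58.1 on log2(TPM + 1) and log2(TPM + 0.1), other filters and scalings, a GC offset, the mitochondrial share and left-out libraries. Counts and named genes of the other lists with libraries left out or the mitochondrial share accounted for were added after seeing the data. The fits were tested on simulated data. No 2 libraries agreed within sampling noise. Total counts were 27784737 to 38524105, a count of 0 allows up to 3 counts, and such limits cover counting error only, since no molecular identifiers were used. The 10 genes and the lists were chosen with earlier results of these data known. From each other list, called genes with the largest change were named (up to 4 per comparison, LPS against vehicle and calycosin plus LPS against LPS), or the 2 most abundant where none was called. For Lcn2, Slc40a1, Tfrc, Slc11a1 and Fth1, the 3 named genes with the highest correlation of log2 CPM (prior count 2) over the 9 libraries were taken. 1 gene that this rule names is not reported here.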

Additional observations from a re-analysis of the deposited data

How the results depend on the processing

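Over 23 alternatives, 690 fold changes of the 10 genes gave 569 with the same sign and side of the threshold, 37 that lost a call, 30 that gained one and 11 that changed direction with a call in either fit. The other 43 changed sign with no call in either fit, 14 of them for Tfrc, 3 for Ireb2 and 3 for Aco1 in calycosin plus LPS against LPS, 11 for Fth1, 4 for Slc11a1 and 3 for Ftl1 in calycosin plus LPS against vehicle, and 5 for Slc11a1 with LPS against vehicle, at -0.52 to 0.42 on the log2 scale. The changes of Lcn2, Ncoa4 and Slc40a1 with LPS against vehicle kept direction and call under all 23. With a call in either fit, direction changed for Fth1 with LPS against vehicle (-0.034 in all 3 TPM fits), for Ireb2 with LPS against vehicle (-0.25, -0.26 and -0.25 in the TPM fits), for Ireb2 in calycosin plus LPS against vehicle (-0.17 in the 3 TPM fits and -0.22 with the GC offset), and for Slc11a1 with LPS against vehicle (0.37 with the GC offset). TPM keeps no counts and its median gene moved, so calls there mix scaling with change. Calls in CPM depend on scaling too. The TMM factors were 0.786 to 0.813 in LPS cells, 0.896 to 1.11 with calycosin plus LPS and 1.05 to 1.42 with vehicle.

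With calycosin plus LPS against LPS, the members called were 1 higher and 1 lower (2333 and 1871 of 14458). Counts over all genes tested are in brackets. The members were 2 and 2 with DESeq2 (2508 and 2299 of 25807) and with the GC offset (2377 and 2503 of 14458). Leaving both outlying libraries out also gave 2 and 2 (3063 and 2670 of 14845). Libraries with a mitochondrial share above 10% gave 3 and 2 (2619 and 2282 of 14927). Fitting only these 2 groups gave 3 and 2 (2743 and 2391 of 13572). The mitochondrial share as a covariate gave 3 and 3 (3473 and 3282 of 14458), and each TPM fit 0 and 0. RLE size factors gave 2 lower (2146 of 14458). Leaving out 1 library gave 1 to 3 higher (1697 to 3164) and 0 to 2 lower (1224 to 2576). With LPS against vehicle, 2, 2 and 1 members were higher in the TPM fits. Vehicle replicate 3 stood alone above 10%, so no such count is given there. With calycosin plus LPS against vehicle, the TPM fits called 1 higher each, and 1 lower without a filter.

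Over all genes, calycosin plus LPS against LPS had 3282 lower with the covariate, 1224 to 2670 lower with 1 library or both outlying libraries left out (1224 without calycosin plus LPS replicate 1, against 1871), 335, 333 and 300 lower in the TPM fits, and 1423 and 897 higher in the TPM fits at pseudocount 1 with and without a filter. LPS against vehicle had 1476, 1481 and 1503 higher and 6962 and 6960 lower in the TPM fits. Calycosin plus LPS against vehicle had 1500, 1496 and 1412 higher in the TPM fits, and 1981 lower among libraries above 10%. The causes of these shifts were not tested.

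The replicate numbers did not pair the libraries: same-numbered libraries correlated at -0.17 to 0.36 in their deviations from group means. With the replicate block, 3910 genes rose and 3930 fell with LPS, and among the 10 genes the Ireb2 call in calycosin plus LPS against vehicle was lost (0.26, adjusted p = 0.0754). Slc40a1 in LPS cells rests on the fewest counts of the 10 genes.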

Other observations

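Over the 9 libraries the genes that followed Slc11a1 most closely in log2 CPM were Capn10 (Pearson r = 0.956), Smpd1, the lysosomal acid sphingomyelinase (r = 0.956), and Kri1 (r = 0.949). Smpd1 averaged 24.2 ± 5.18 CPM in calycosin plus LPS cells, 17.3 ± 1.49 CPM in LPS cells and 18.3 ± 2.87 CPM in vehicle cells (SD, n = 3 each). For Tfrc the closest genes were Arfgap1 (r = 0.862), Sptb (r = 0.852) and Pth1r (r = 0.848), the last 2 at under 1 CPM in every group mean. For Fth1 they were Ppp1r18, a regulator of protein phosphatase 1 (r = 0.990), Apoa2 (r = 0.985) and Kansl1l (r = 0.979), and Ppp1r18 averaged 127 ± 20.3 CPM in calycosin plus LPS cells, 253 ± 29.5 CPM in LPS cells and 124 ± 26.2 CPM in vehicle cells. These are the highest values among 11752 genes ranked and describe 9 libraries that share 3 groups.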
